A study of Saccharomyces cerevisiae with 8 samples.

Results

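Ergosterol is the main sterol of yeast membranes, and the genes described here make it, regulate its supply, store it as esters or move it between membranes. They were chosen by name as 31 genes of ergosterol synthesis and sterol regulation, and each was found through a probe set that the platform annotation pairs with its symbol. All 31 were measured, through 34 probe sets, among 5656 genes on the array. The rule uses names only, but the list was drawn up with earlier results of these data known. They comprise 9 genes of the mevalonate arm, squalene synthase, 13 genes of the late arm from squalene to ergosterol, 2 electron donors, 3 regulators and 3 genes of transport and storage. RNA abundance was compared between 4 haploid Saccharomyces cerevisiae strains labelled V81G and 4 labelled wild type (WT), all derived from the laboratory strain W303a. The labels state that every strain has disruptions of HYP2 and ANB1, which encode yeast eIF5A, and grows on human EIF5A1 carried on a plasmid. The V81G strains carried the V81G point mutant of that protein and are described as temperature sensitive, and the WT strains carried the unmutated protein and are described as growing normally. Early log phase cultures at 25 °C each gave 6 µg of total RNA for 1 Affymetrix array. The series design calls the 4 strains of a group isogenic, and the labels call them biological replicates.

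Sterol synthesis starts from acetyl-CoA, which the mevalonate arm turns into farnesyl pyrophosphate, a precursor shared with heme A, ubiquinone, dolichol and prenylated proteins. Squalene synthase commits this precursor to sterols. The late arm closes the rings and trims and desaturates the product, and several of its enzymes consume molecular oxygen and need heme or iron. In yeast the transcription factors Upc2 and Ecm22 activate many of these genes when sterols run low, and sterols are taken up from outside only when oxygen is scarce.

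Values were log2 probe-set intensities, and differences are V81G minus WT, so positive means higher in V81G arrays. Rose and fell are used of genes with a limma adjusted p under 0.05 (Benjamini-Hochberg over all 9275 probe sets), and other members are given by their values. Some counts below use limma's unadjusted p under 0.05. Shares of all genes at that threshold are not given, so those counts cannot be set against the array as a whole. HYP2, described as disrupted in all strains, averaged 12.02 ± 0.23 in V81G arrays and 15.42 ± 0.01 in WT arrays (SD, n = 4 each). The WT level, at the table's ceiling of 15.43, goes against that description. ANB1, also described as disrupted, averaged 14.18 ± 0.20 in V81G arrays and 14.04 ± 0.13 in WT arrays, which goes against it in both groups. HYP2 in V81G arrays also lay above the dim limit of 9.03 given below. What these probe sets detect was not tested. V81G and WT below therefore mean arrays so labelled. Per the run sheets, arrays 1 and 2 of both groups belong to hybridization day 1, and arrays 3 and 4 belong to day 2. On day 1 the fluidics station also separated the groups, so station and group cannot be told apart there. On day 2 WT 4 alone was on station 2, while V81G 3, V81G 4 and WT 3 were on station 1. Median intensities ran from 1137 to 1184 in V81G arrays and from 1099 to 1190 in WT arrays. The bright end was lower in V81G arrays, with a 95th percentile of 13.34 to 13.47, against 13.50 to 13.79 in WT arrays (log2). Because many sterol genes are bright, differences after quantile normalization of the arrays are given below where they matter. Genes of both mating types were measured above the dim limit, which is 9.03, the 25th percentile of mean log2 intensity over probe sets. Of 4 listed alpha-cell genes 2 were measured. SAG1 averaged 13.17 in V81G arrays and 11.40 in WT arrays and rose, and STE3 averaged 11.47 in V81G arrays and 11.21 in WT arrays. Of 6 a-cell genes 2 rose, STE2 (9.26 in V81G arrays, 8.11 in WT arrays) and STE6 (9.61 in V81G arrays, 9.0 in WT arrays). The WT means of both lay under the dim limit. MFA1 (10.47 and 10.42) and MFA2 (11.71 and 11.40) did not pass, and BAR1 (8.81 and 8.58) and AGA2 (8.57 and 8.25) lay under the dim limit in V81G and WT arrays. The part of these markers in the results below was not tested. In RNA from whole cultures, fewer cells that express a gene and less RNA per cell cannot be told apart.

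Of the 31 sterol genes, 4 fell and 2 rose in V81G arrays, while 25 did not pass the test. The 4 that fell, ERG13, MVD1, IDI1 and ERG20, all belong to the mevalonate arm, and the 2 that rose, ERG7 and NCP1, both lie on chromosome VIII. Across all genes 12.3% fell and 9.21% rose. The share of sterol genes called in either direction, 19.4%, is close to the 21.5% of all genes. The median difference over the 31 genes was -0.14, against -0.08 over all genes. Groups did not overlap for 11 members, 7 lower and 4 higher in V81G arrays, and across all genes 28.1% had groups that did not overlap, 16.7% with V81G lower and 11.5% with V81G higher. With the replicate number in the fit, 4 members fell and 2 rose, against 13.7% and 9.95% of all genes. With the hybridization day as a block, 7 members fell and 3 rose, when 18.3% of all genes fell and 12.5% rose. The members added by that fit were ERG10 (adjusted p = 0.0455), HMG2 (adjusted p = 0.0385) and ECM22 (adjusted p = 0.0472) among those that fell and SUT1 (adjusted p = 0.0217) among those that rose. Without single arrays the count that fell ranged between 1 (without V81G 1) and 4. It was 2 without V81G 3, WT 1, WT 3 or WT 4. The count that rose was 1 without V81G 2 or WT 1, and 3 without WT 4.

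**Figure D1:**
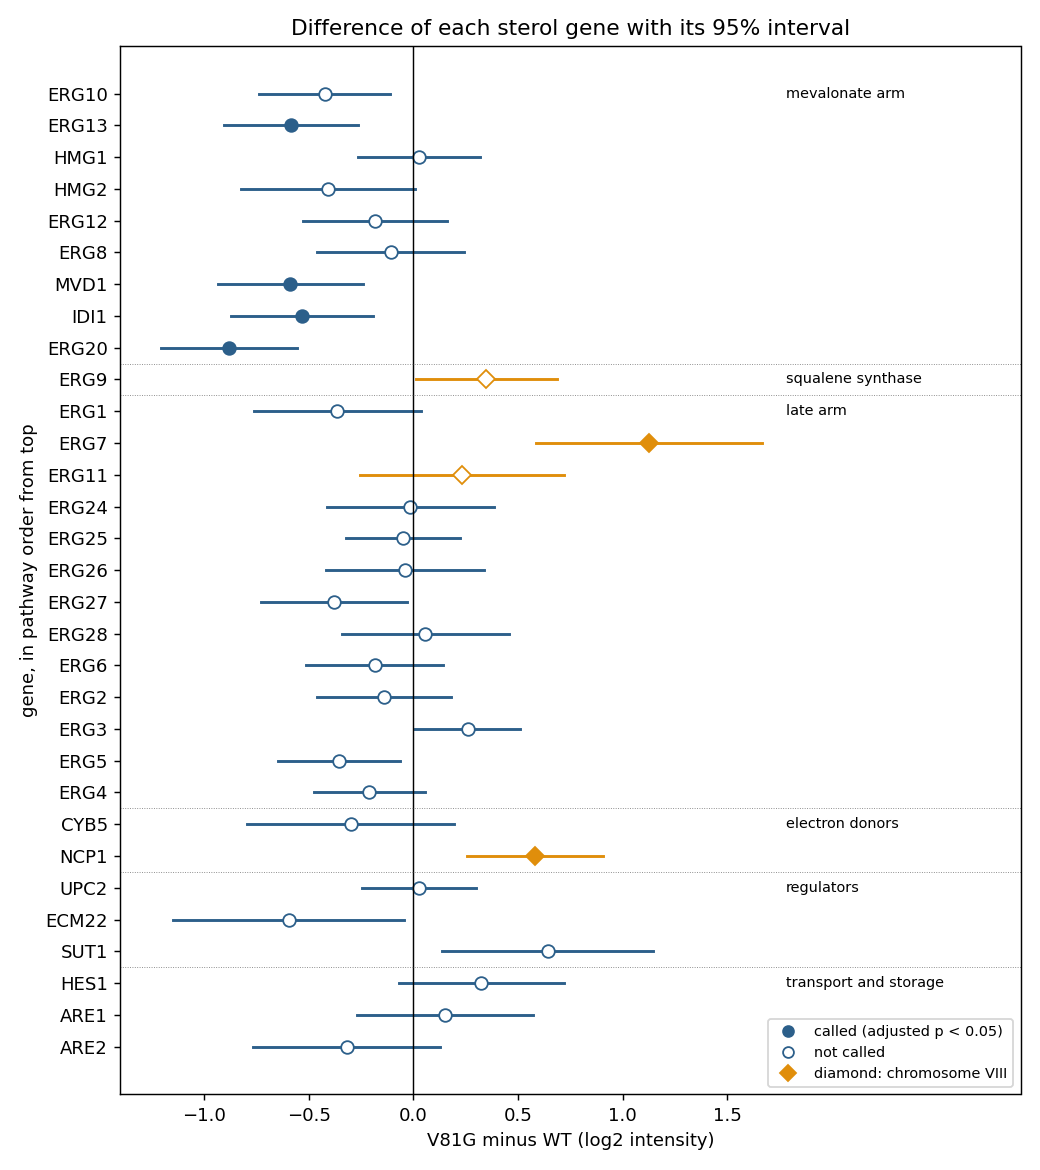
Difference between V81G and WT (log2 intensity, points, with 95% intervals as lines) for the 31 sterol genes in pathway order from top to bottom. Filled points passed the test and diamonds mark genes of chromosome VIII; the filled circles, between -0.88 for ERG20 and -0.53 for IDI1, all stand in the mevalonate arm.

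ERG20 encodes farnesyl pyrophosphate synthase, the last enzyme of the mevalonate arm, and had the largest fall among the 31 genes. Its log2 intensities were 13.46, 13.39, 13.09 and 12.95 in V81G arrays 1 to 4, against 14.19, 14.06, 13.98 and 14.19 in WT arrays 1 to 4. Every V81G array lay below every WT array, and the V81G arrays of day 2 were the lowest. ERG20 fell by 0.88 ± 0.15 (SE), which is 1.84-fold higher in WT arrays (adjusted p = 0.0029). The difference was -0.70 on day 1 and -1.07 on day 2, and after quantile normalization it was -0.68 (adjusted p = 0.0208). Its call held without any single array, with an adjusted p of at most 0.0131.

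ERG13 encodes HMG-CoA synthase, which makes the substrate of HMG-CoA reductase. It had 12.41, 12.41, 12.55 and 12.54 in V81G arrays, against 13.04, 12.78, 13.06 and 13.37 in WT arrays. The V81G arrays were tightly grouped below all WT arrays, of which WT 2 was the lowest and WT 4 the highest. ERG13 fell by 0.58 ± 0.14 (adjusted p = 0.0199), by 0.50 on day 1 and 0.67 on day 2. The adjusted p was 0.0506 without V81G 1, 0.0515 without WT 1 and 0.116 on day 1 alone.

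MVD1, mevalonate pyrophosphate decarboxylase, had 12.05, 12.36, 11.84 and 12.18 in V81G arrays, against 12.60, 12.50, 12.72 and 12.97 in WT arrays. It fell by 0.59 ± 0.16 (adjusted p = 0.0272), with -0.34 on day 1 and -0.84 on day 2. IDI1, the isomerase that converts isopentenyl diphosphate into its allylic partner, had 10.79, 10.85, 10.63 and 11.02 in V81G arrays, against 11.30, 11.15, 11.28 and 11.68 in WT arrays. Both genes were lower in every V81G array than in any WT array. IDI1 fell by 0.53 ± 0.15 (adjusted p = 0.0365), with -0.41 on day 1 and -0.66 on day 2. Both calls were close to the threshold. MVD1 lost its call without V81G 1, V81G 3, V81G 4, WT 1, WT 3 or WT 4, where the adjusted p lay between 0.0523 and 0.0730. IDI1 lost it without V81G 1, V81G 2, V81G 3, WT 1, WT 3 or WT 4, with an adjusted p between 0.0645 and 0.0972. On day 1 alone neither MVD1 (adjusted p = 0.28) nor IDI1 (adjusted p = 0.15) passed. On day 2 alone IDI1 did not pass (adjusted p = 0.0854). After quantile normalization ERG13 (-0.48), MVD1 (-0.52) and IDI1 (-0.53) kept their calls. With each chromosome centred on its median, MVD1 (adjusted p = 0.0591) and IDI1 (adjusted p = 0.0658) did not.

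**Figure D2:**
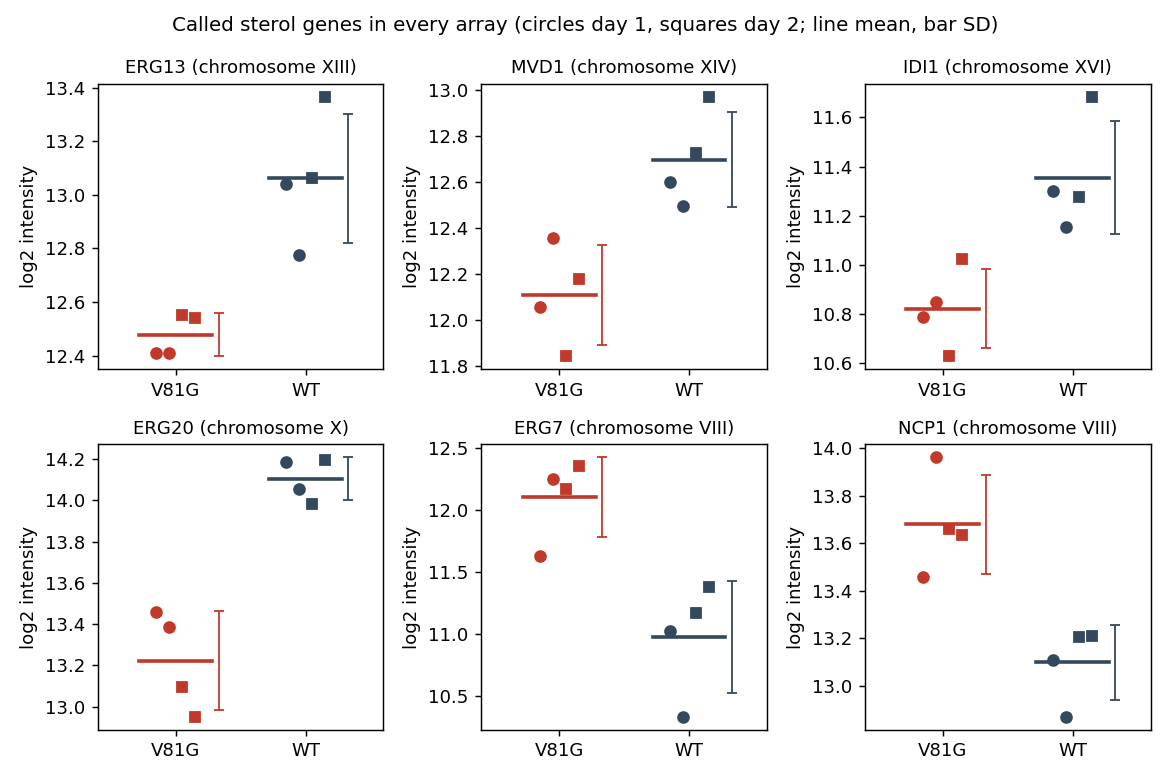
Log2 intensity of the 6 called sterol genes in each array, V81G left and WT right, with circles for day 1, squares for day 2, lines at the means and bars of 1 SD (n = 4 per group); each panel has its own axis. In each panel the groups do not overlap: ERG13, MVD1, IDI1 and ERG20 are lower in V81G arrays, and ERG7 and NCP1 are higher.

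The other 5 genes of the mevalonate arm did not pass the test. ERG10, the thiolase of the opening step, ranged from 13.29 to 13.55 in V81G arrays and from 13.55 to 14.04 in WT arrays, which did not overlap. Its difference was -0.42 ± 0.14 (adjusted p = 0.0658), -0.17 on day 1 and -0.68 on day 2, and -0.19 after quantile normalization. The adjusted p was 0.0420 without WT 1. HMG1 and HMG2 encode the paralogous HMG-CoA reductases, the classic control point of the pathway, whose Hmg2 form is subject to regulated degradation in yeast. HMG1 ranged from 13.98 to 14.37 in V81G arrays and from 14.01 to 14.20 in WT arrays, a difference of 0.03 with a 95% interval of -0.26 to 0.32. HMG2 ranged from 12.15 to 12.96 in V81G arrays and from 12.80 to 13.21 in WT arrays. Its difference of -0.41 ± 0.19 missed the threshold (adjusted p = 0.176). After quantile normalization the differences were 0.24 for HMG1 (adjusted p = 0.302) and -0.29 for HMG2 (adjusted p = 0.42). The difference between the paralogs was not tested. ERG12, mevalonate kinase, differed by -0.18 ± 0.15 in its brightest probe set and by -0.27, -0.18 and -0.00 in the other 3. ERG8, phosphomevalonate kinase, differed by -0.11 ± 0.16. These kinases act between the reductases and MVD1, and their groups overlapped. In the mevalonate arm as a whole 8 of 9 differences were negative, with a median of -0.42, and 4 of 9 genes fell, against 12.3% of all genes. The median over all genes was also negative, at -0.08, and the share of all genes with a negative difference is not given here. After quantile normalization the arm's median was -0.29.

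ERG9, squalene synthase, draws farnesyl pyrophosphate into the sterol branch and lies on chromosome VIII. It ranged from 13.22 to 13.75 in V81G arrays and from 12.95 to 13.32 in WT arrays. Its difference of 0.35 ± 0.15 missed the threshold (adjusted p = 0.155). It was 0.62 on day 1 and 0.08 on day 2, and after quantile normalization ERG9 rose by 0.54 (adjusted p = 0.0338).

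In the late arm 1 of 13 genes rose, none fell and 12 did not pass. The gene that rose was ERG7, lanosterol synthase, which closes the sterol rings. Its log2 intensities were 11.63, 12.25, 12.16 and 12.35 in V81G arrays, against 11.02, 10.33, 11.17 and 11.38 in WT arrays. The lowest V81G array stood above the highest WT array, and WT 2 was the lowest of all. ERG7 rose by 1.12 ± 0.24, or 2.18-fold (adjusted p = 0.0107), with 1.26 on day 1 and 0.99 on day 2. The call held without any single array, with an adjusted p of at most 0.0336, but was lost on day 1 alone.

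Among the 11 late genes on other chromosomes none passed limma's test, and 1 was higher and 2 were lower at an unadjusted p under 0.05. Their differences ran from -0.38 to 0.26, with a median of -0.14. ERG27, a keto reductase of the demethylation complex, had the lowest, at -0.38 ± 0.16 (adjusted p = 0.135). ERG1, squalene epoxidase, and ERG5, a sterol desaturase of the cytochrome P450 family, differed by -0.36 ± 0.18 and -0.35 ± 0.13. ERG5 ranged from 11.99 to 12.38 in V81G arrays and from 12.43 to 12.64 in WT arrays, without overlap, and its adjusted p was 0.0960. ERG4, the reductase of the last step, had -0.21 ± 0.12 with groups that did not overlap (adjusted p = 0.280), and after quantile normalization its difference was 0.01. The methyltransferase gene ERG6 and the isomerase gene ERG2 differed by -0.19 ± 0.15 and -0.14 ± 0.14, and their signs also turned under quantile normalization (0.04 and 0.06). ERG24, a sterol reductase, ERG26, a sterol dehydrogenase, and ERG28, the scaffold of the demethylation complex, lay within 0.06 of 0, and each changed sign between the days. The highest of the 11 was ERG3, another sterol desaturase.

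Enzymes that consume oxygen are ERG1, ERG11, ERG25, ERG3 and ERG5, and none of the 5 passed limma's test, while 1 was higher and 1 lower at an unadjusted p under 0.05. Their differences ran from -0.36 for ERG1 to 0.26 for ERG3, with a median of -0.05. ERG3 had 14.57 to 14.74 in V81G arrays and 14.32 to 14.53 in WT arrays. These ranges did not overlap, and the difference of 0.26 ± 0.11 was 0.26 on each day but missed the threshold (adjusted p = 0.153). After quantile normalization ERG3 rose by 0.42 (adjusted p = 0.0154). ERG11, the lanosterol demethylase that azole drugs inhibit, lies on chromosome VIII and ranged from 14.13 to 14.87 in V81G arrays and from 13.94 to 14.69 in WT arrays. Its difference was 0.23, with a 95% interval of -0.26 to 0.72. ERG25, the methyl sterol oxidase, differed by -0.05, with an interval of -0.32 to 0.22. Its highest array, at 15.15, was near the highest value of the table, 15.43.

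The electron donors of these enzymes are NCP1, which rose, and CYB5, which did not pass. NCP1, the NADPH-cytochrome P450 reductase on chromosome VIII, had 13.46, 13.96, 13.66 and 13.64 in V81G arrays, against 13.11, 12.87, 13.21 and 13.21 in WT arrays. It was higher in every V81G array than in any WT array and rose by 0.58 ± 0.15, or 1.50-fold (adjusted p = 0.0217), with 0.72 on day 1 and 0.44 on day 2. The adjusted p was 0.0527 without V81G 2 and 0.0561 without WT 1, and NCP1 did not pass on either day alone. CYB5, cytochrome b5, ranged from 11.91 to 12.25 in V81G arrays and from 11.98 to 12.93 in WT arrays. Its difference was 0.02 on day 1 and -0.62 on day 2, and -0.30 ± 0.22 over both (adjusted p = 0.427). WT 3 and WT 4, both of day 2, held its highest values.

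None of the 3 regulators passed limma's test, and at an unadjusted p under 0.05 SUT1 was higher and ECM22 lower. UPC2, whose own transcript is known to increase on sterol depletion in yeast, averaged 8.63 ± 0.08 in V81G arrays and 8.60 ± 0.15 in WT arrays. Its difference was 0.03, with an interval of -0.25 to 0.30, and both means lay under the dim limit of 9.03. ECM22, its paralog, ranged from 9.78 to 10.94 in V81G arrays and from 10.63 to 11.32 in WT arrays. Its difference was -0.60 ± 0.25 (adjusted p = 0.138), and without V81G 4, the lowest array, it was -0.37. SUT1, a regulator that promotes sterol uptake, had 10.11, 10.28, 10.18 and 10.34 in V81G arrays, against 9.30, 9.02, 9.97 and 10.05 in WT arrays. The groups did not overlap, but the gap came mainly from the WT arrays of day 1. The difference of 0.64 ± 0.23 missed the threshold (adjusted p = 0.0837) and was 1.03 on day 1 and 0.25 on day 2. Without WT 4 the adjusted p was 0.0467.

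The genes of transport and storage gave no calls, also at an unadjusted p under 0.05, where the count in limma's test was 0 of 3. HES1, an oxysterol-binding protein homolog, averaged 8.61 ± 0.25 in V81G arrays and 8.28 ± 0.26 in WT arrays, a difference of 0.33 ± 0.18 (adjusted p = 0.257). ARE1 and ARE2 encode the paralogous acyltransferases that esterify sterols for storage in lipid droplets. ARE1 differed by 0.47 on day 1 and -0.17 on day 2, and ARE2 by 0.18 on day 1 and -0.82 on day 2. Over both days the differences were 0.15 ± 0.19 for ARE1 and -0.32 ± 0.20 for ARE2. HES1, ARE2 and UPC2 were the 3 members whose mean over all arrays lay under the dim limit.

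The arms were also set against each other as the mean of their genes in each array, each gene taken relative to its mean in WT arrays. For the mevalonate arm this was -0.31, -0.25, -0.55 and -0.53 in V81G arrays, against -0.00, -0.06, -0.06 and 0.12 in WT arrays. For the late arm it was -0.08, 0.12, -0.09 and 0.03 in V81G arrays, against -0.00, -0.21, 0.00 and 0.20 in WT arrays. The groups were apart in the mevalonate arm and overlapped in the late arm. Late minus mevalonate was 0.23, 0.37, 0.46 and 0.56 in V81G arrays, against -0.00, -0.14, 0.06 and 0.08 in WT arrays, whose mean is 0 by construction. Without the late genes of chromosome VIII it averaged 0.28 ± 0.09 in V81G arrays, and with them 0.40 ± 0.14 (SD, n = 4). The arms' median differences, -0.42 for the mevalonate arm and -0.05 for the late arm, were -0.30 and -0.01 on day 1 and -0.66 and -0.27 on day 2. After quantile normalization they were -0.29 and 0.04. No test was run on these values, since the genes were grouped with earlier results known.

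**Figure D3:**
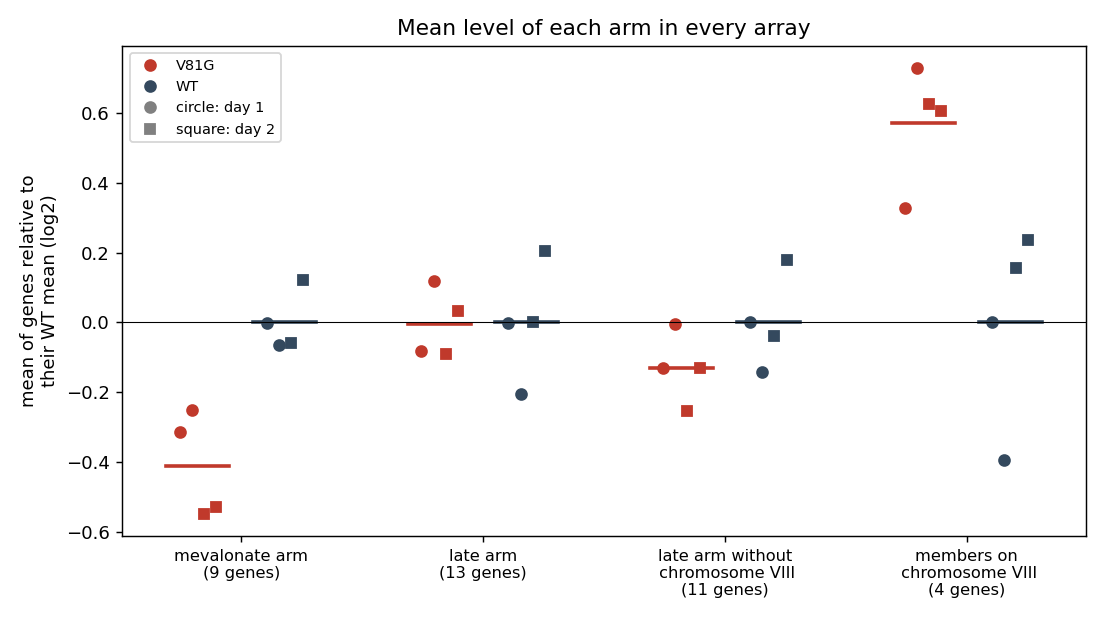
Mean log2 level of 4 gene groups in each array, every gene relative to its mean in WT arrays, with V81G left of WT, circles for day 1, squares for day 2 and lines at the group means. In the mevalonate arm all V81G arrays lie at or under -0.25, below every WT array, while in the late arm the groups overlap.

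All 4 members on chromosome VIII (ERG7, ERG9, ERG11 and NCP1) had positive differences, as did most genes of that chromosome. Its 259 measured genes had a median of 0.46, and 5378 genes of the other nuclear chromosomes one of -0.09. On chromosome VIII 41.3% of genes rose and 1.93% fell, beside 2 of 4 and 0 of 4 members. Groups did not overlap, with V81G higher, for ERG7 and NCP1 and for 47.1% of the chromosome's genes. Relative to the chromosome's median, ERG7 stood at 0.66, NCP1 at 0.12, ERG9 at -0.11 and ERG11 at -0.23. Centred in this way, ERG7 (adjusted p = 0.10) and NCP1 (adjusted p = 0.667) no longer passed. The 2 nearest measured genes on each side of these members, 16 in all, had a median difference of 0.49. Of these, 14 were positive, and 6 rose. The immediate neighbours of ERG7 were PCL5, at 0.55 ± 0.27, and OSH3, at 0.20 ± 0.14, neither of which passed. OSH3 averaged 8.13 in V81G arrays and 7.94 in WT arrays, under the dim limit. The next measured genes outward were TRM5, which rose by 0.99 ± 0.25 (adjusted p = 0.0249), and QNS1, at 0.36 ± 0.18, which did not pass. The 27 members on other chromosomes had a median of -0.19, with 4 that fell and none that rose in limma's test. On those chromosomes 12.8% of all genes fell and 7.67% rose at an adjusted p under 0.05. At an unadjusted p under 0.05 in limma's test, 2 of the 27 were higher and 8 lower. The share of all genes at that unadjusted threshold is not given here.

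**Figure D4:**
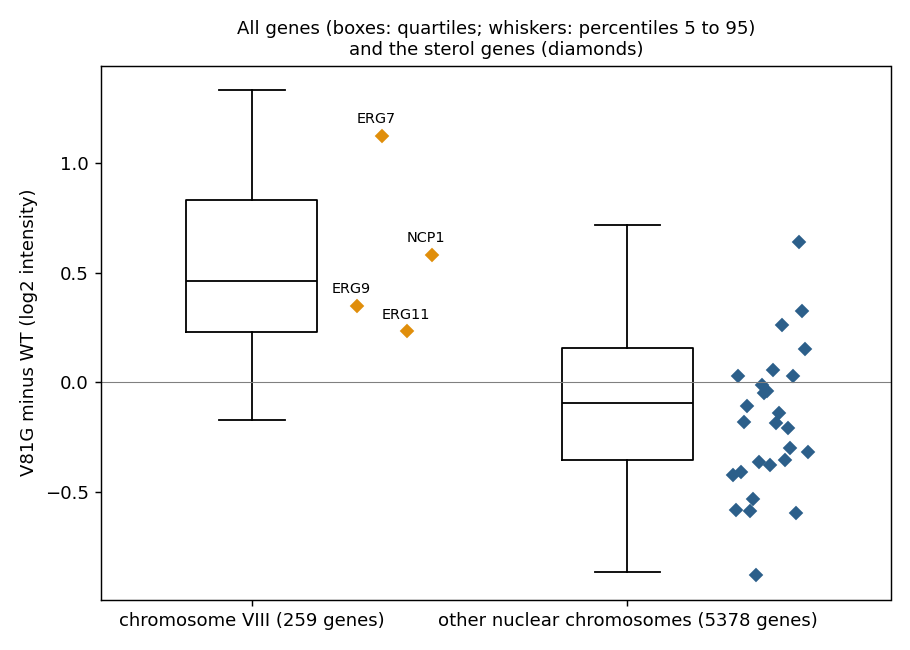
Difference between V81G and WT (log2) for all genes of chromosome VIII and of the other nuclear chromosomes (boxes span the quartiles, whiskers run between the 5th and 95th percentiles), with the sterol genes as diamonds beside each box. The 4 members on chromosome VIII lie between 0.23 and 1.12, and all but ERG7 fall within its quartiles.

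Members differed in how they moved between the hybridization days. In V81G arrays 21 of 31 members were lower on day 2 than on day 1, and in WT arrays 10 of 31. The median difference over all members was 0.02 on day 1 and -0.32 on day 2, while the median over all genes was -0.04 and -0.11. All 6 called members kept their sign on both days, as did 22 of the 31. The calls used the arrays of both days, so this agreement of sign is not separate support for them. The matching day counts over all genes are not given here. ERG24 differed by 0.40 on day 1 and -0.43 on day 2, and ARE2 by 0.18 and -0.82. The part of the day or of the station in these values was not tested.

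**Figure D5:**
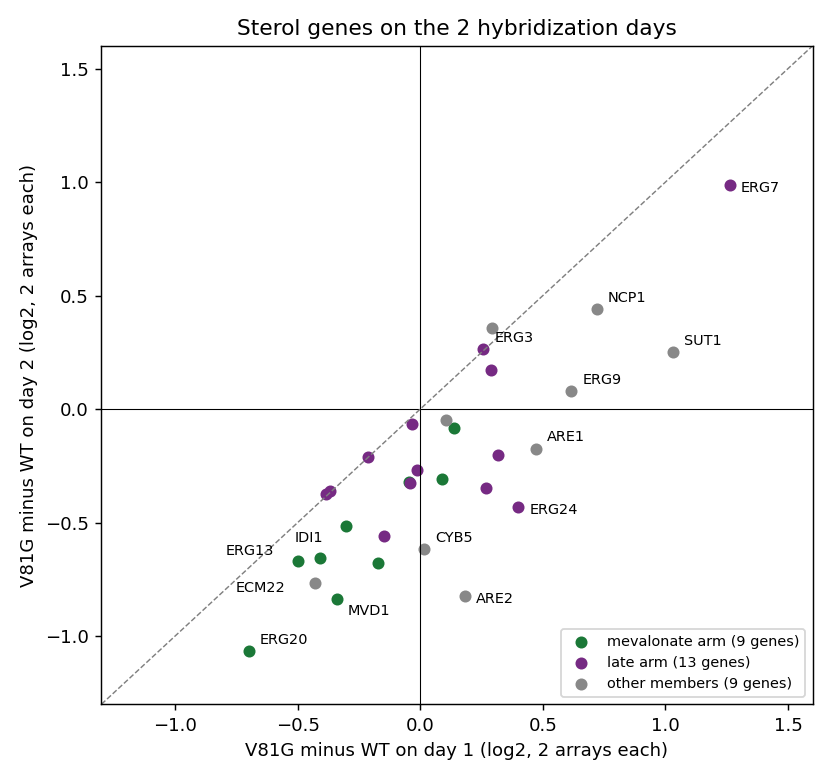
Difference between V81G and WT (log2) on day 1 (horizontal axis) and day 2 (vertical axis) for the 31 sterol genes, each from 2 arrays per group, with the dashed line marking equal values. Most genes lie under the line, ERG20 is at -0.70 and -1.07, and SUT1 is at 1.03 and 0.25.

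Further genes of sterol transport, ester turnover, regulation and prenyl metabolism were taken from a list of 42 genes, all measured. Of these 5 rose and 1 fell, beside 9.21% and 12.3% of all genes, and 36 did not pass, with a median of 0.04. NSG1, whose product protects Hmg2 from degradation in yeast, had 13.81, 13.92, 13.79 and 13.95 in V81G arrays, against 12.91, 12.38, 12.69 and 13.06 in WT arrays. It rose by 1.11 ± 0.16, or 2.16-fold (adjusted p = 0.0013), and by 0.65 relative to the median of its chromosome, VIII (adjusted p = 0.0217). The lipid transfer genes OSH7 (0.79 ± 0.15) and LAM1 (0.74 ± 0.15) also rose and lie on chromosome VIII, and relative to its median they were at 0.33 and 0.28 and no longer passed (adjusted p = 0.188 and 0.270). On chromosome VIII 3 of 5 listed genes rose, beside 41.3% of all its genes, and elsewhere 2 of 37, beside 7.67% of all genes there.

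YEH1, a steryl ester hydrolase that releases stored sterols, had 11.35, 11.36, 11.48 and 11.40 in V81G arrays, against 10.55, 10.63, 10.30 and 10.61 in WT arrays. It rose by 0.87 ± 0.12, or 1.83-fold (adjusted p = 0.0012), and lies on chromosome XII. PDR11, a transporter for sterol uptake at low oxygen, had 9.63, 10.07, 10.08 and 10.10 in V81G arrays, against 9.49, 9.35, 9.46 and 9.04 in WT arrays. It rose by 0.64 ± 0.16 (adjusted p = 0.0209), a call lost without V81G 2, V81G 3, V81G 4 or WT 4 (adjusted p up to 0.0582). Its partner transporter gene AUS1 differed by 0.20 ± 0.20 (adjusted p = 0.585). PRY1, a secreted sterol-binding protein, had 13.27, 13.46, 13.23 and 13.17 in V81G arrays, against 13.86, 13.85, 13.90 and 14.04 in WT arrays. It fell by 0.63 ± 0.12 (adjusted p = 0.0057). PRY1, PDR11 and LAM1 each lost their call on day 1 alone. When replicate numbers entered as a block, 3 of the 42 genes fell, the added ones being OSH6 (-0.64 ± 0.23, adjusted p = 0.0137 in that fit) and the dolichol synthesis gene RER2 (-0.47 ± 0.21, adjusted p = 0.0430). The oxygen and heme regulators HAP1 (0.04 ± 0.33) and ROX1 (0.56 ± 0.28) did not pass.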

How the data were processed

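RNA from 8 yeast cultures was hybridised to 1 array each, 4 per group. The deposited intensities are linear values between 89.9 and 44207, made with RMA per the submitters' processing notes, with no version, and whether they were scaled or centred afterwards is not known here. Log2 was taken before all tests. The 60 control probe sets were left out. Probe sets with 1 symbol (6504) were named through gene IDs in RefSeq assembly R64, 328 had several symbols and 2443 were not listed. For the 315 genes with several probe sets, the one with the highest mean stood for the gene. The two-sided tests of V81G against WT used limma 3.58.1 in R 4.3.3, with group as the only term. All members are named, called ones with each array's value, as are called genes of the list of 42 further sterol genes. Members, lists and rules were chosen with earlier results of these data known. Per the run sheets, 1 chip lot was used.

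Deviations from the group means of equally numbered replicates correlated at r = 0.228 to 0.436 across probe sets, over 0.1 in all 4 pairs, so the number was used as a block beside the main fit. Equally numbered arrays share a hybridization day, and pairs of other numbers on the same day reached 0.222 to 0.343. The alternatives were quantile normalization, median centring, an offset of 50, a filter at the 25th percentile of mean log2 intensity (9.03), eBayes with trend and robust settings, both blocks, single days, leaving out each array, averaged probe sets, and chromosome VIII left out or each chromosome centred on its median. Tested on simulated data with 200 of 9275 probe sets changed, limma recovered 12 of 100 differences of 0.5 and 59 of 100 of 1 (log2). The precision is limited by the number of arrays.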

Additional observations from a re-analysis of the deposited data

How the results depend on the processing

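The cause of the changes listed here was not tested, except that leaving out arrays or days or chromosome VIII leaves fewer arrays or genes. Of all genes, 417 fell on day 1 alone and 864 on day 2 alone, against 696 in all arrays. Without single arrays 442 to 674 fell (388 to 475 rose, against 521). Of the sterol members, 4 rose after quantile normalization, 1 on day 1 alone, 1 on day 2 alone, 0 without chromosome VIII, 0 with centred chromosomes and 1 to 3 without single arrays, against 2. Those that fell numbered 7 with the day as a block, 1 on day 1 alone, 6 on day 2 alone, 2 with centred chromosomes and 1 to 4 without single arrays, against 4. Of the further sterol genes, 2 rose without chromosome VIII, 3 with centred chromosomes and 4 to 5 without single arrays, against 5. Those that fell numbered 2 after median centring, 2 with the offset, 3 without dim probe sets, 3 with the replicate block, 5 with the day as a block, 0 on day 1 alone, 7 on day 2 alone and 1 to 2 without single arrays, against 1. The median difference on day 2 was -0.66 in the mevalonate arm and -0.27 in the late arm. That of the oxygen-requiring enzymes was -0.20 without chromosome VIII and -0.23 with centred chromosomes, against -0.05. Without single arrays, the median difference ranged from -0.52 to -0.39 in the mevalonate arm, from -0.13 to 0.00 in the late arm and from -0.10 to 0.00 for the oxygen-requiring enzymes, and late minus mevalonate from 0.28 to 0.46. The replicate block left the counts of sterol members at 2 that rose and 4 that fell, and changed no call other than those of OSH6 and RER2 among the genes named. Over single members and alternatives, 539 values kept direction and side of the threshold, 27 lost the call, 12 gained it and 35, none called, changed sign. No called member changed sign. ERG20 kept its call under all 20 alternatives, with differences from -1.07 to -0.68. In the simulated data, with 200 of 9275 probe sets changed, differences of 0.5 were mostly not recovered. In the real arrays 21.5% of all genes were called, so the simulated rate need not hold for them.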
